A study of Mus musculus with 13 samples.

Results

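The 10 genes described here encode the main survival and death proteins of the Bcl2 family: Bcl2, Mcl1, Bcl2l1, Bcl2l11, Bax, Bak1, Bbc3, Pmaip1, Bad and Bid. They were taken as the rows of the count files whose RefSeq identifier maps to these symbols, which gave 10 of 24072 identifiers, and all 10 passed the filter on low counts. They were measured by RNA sequencing in common lymphoid progenitors (CLP), the marrow cells that give rise to lymphocytes, from wild-type (WT) C57BL/6 mice whose age and sex the labels do not give. Cell sorting on 2 surface proteins, Ly6D and Gfra2, gave 3 Ly6D+Gfra2+ libraries, 4 Ly6D+Gfra2- libraries and 6 Ly6D-Gfra2- libraries. Bbc3 and Pmaip1 passed the filter on low counts only through Gfra2- libraries. Separate animals or pools are not named for the replicates, so p-values measure only the spread between libraries, which may be technical. Library names begin with P or T, with no meaning stated: all 3 Ly6D+Gfra2+ libraries, 2 of 4 Ly6D+Gfra2- libraries and 3 of 6 Ly6D-Gfra2- libraries begin with T.

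Bcl2 family proteins decide whether the mitochondrial outer membrane stays intact. Bcl2, Mcl1 and Bcl-xL (the product of Bcl2l1) keep cells alive by holding the pore-forming effectors Bax and Bak1 and the BH3-only proteins in check, and BH3-only proteins such as Bim (Bcl2l11), Puma (Bbc3), Noxa (Pmaip1), Bad and Bid relay death signals. In mouse lymphoid progenitors, signalling through the interleukin 7 receptor is known to sustain survival in part through Bcl2 and Mcl1, and Bim is the main BH3-only protein that removes lymphocytes.

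The windows of 250 bases before the transcription start are shown for the member whose level differed (Bcl2), for the survival gene with the highest level per kb of transcript (Mcl1), and for the most abundant BH3-only gene by read count (Bcl2l11). They are RefSeq sequences of build GRCm38.p6, written 5′ to 3′ on the gene's strand, and capitals mark a motif match on either strand. The starts of these windows were not matched to a position in the counted transcripts. The windows may therefore not lie before the start of the transcripts that were measured.
Bcl2, chr1:106714291-106714540, minus strand: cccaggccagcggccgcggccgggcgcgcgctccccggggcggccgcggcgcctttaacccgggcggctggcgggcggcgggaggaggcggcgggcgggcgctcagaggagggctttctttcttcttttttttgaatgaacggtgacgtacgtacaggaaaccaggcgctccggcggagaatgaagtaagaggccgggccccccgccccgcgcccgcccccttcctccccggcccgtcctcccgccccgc
Mcl1, chr3:95658471-95658720, plus strand: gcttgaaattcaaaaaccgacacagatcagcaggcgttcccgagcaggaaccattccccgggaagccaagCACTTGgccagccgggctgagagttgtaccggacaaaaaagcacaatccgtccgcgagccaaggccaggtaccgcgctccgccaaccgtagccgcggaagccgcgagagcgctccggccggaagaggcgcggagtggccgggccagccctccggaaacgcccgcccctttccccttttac
Bcl2l11, chr2:128125788-128126037, plus strand: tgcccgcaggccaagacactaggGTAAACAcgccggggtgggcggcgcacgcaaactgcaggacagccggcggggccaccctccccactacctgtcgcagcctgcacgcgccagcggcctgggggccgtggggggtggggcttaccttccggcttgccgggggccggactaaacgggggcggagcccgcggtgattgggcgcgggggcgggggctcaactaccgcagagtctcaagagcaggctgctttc
The motifs searched were the E-box CANNTG, the Ebf motif (TCCC and GGGA set 2 bases apart), the forkhead motif GTAAACA and the Stat motif TTCNNNGAA, which occur in 66.2%, 0.779%, 3.17% and 7.02% of 32851 mouse windows of this length. The Bcl2 window is 74.8% G and C and holds no match to any of these letters. The Mcl1 window lies inside the gene's RefSeq span, which begins further upstream. It is 64.4% G and C and holds 1 E-box (CACTTG) that begins 180 bases before the start. The Bcl2l11 window shown, the first of 2, is 72.0% G and C and holds 1 forkhead match (GTAAACA) that begins 227 bases before the start. The second Bcl2l11 window (chr2:128127325-128127574), 73.2% G and C, holds no match. A match is a description of the sequence and not evidence of binding.

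Counts per library totalled 6892728 to 23705975, and 10837 to 13969 genes had counts in a library. Levels are given as CPM, counts per 1000000 of a library total scaled by the TMM method. On the unscaled totals, 3 counts in a library correspond to 0.127 to 0.435 counts per 1000000. Transcripts of the sort markers matched the labels in 12 of 13 libraries. Gfra2, the coreceptor used for sorting, stood at 286 to 514 CPM in Ly6D+Gfra2+ libraries, at 0.195 to 14.7 CPM in Ly6D+Gfra2- libraries and at 0 to 5.49 CPM in Ly6D-Gfra2- libraries. Ly6d stood at 171 to 283 CPM in Ly6D+Gfra2+ libraries and at 158 to 506 CPM in Ly6D+Gfra2- libraries. The library labelled Ly6D-Gfra2- replicate 3 went against its label, with Ly6d at 213 CPM, and the other 5 Ly6D-Gfra2- libraries held 0.622 to 8.29 CPM. Ly6D+Gfra2- replicate 1 also stood apart from its group, as the values of Bax and Bad below show. The CLP markers Il7r and Flt3 were present in every library, at 310 CPM or more and 760.1 CPM or more.

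Bcl2 was the only member whose level passed the test between sorted groups. In Ly6D+Gfra2+ cells its transcript was about 5-fold below the Ly6D+Gfra2- level and about 4-fold below the Ly6D-Gfra2- level, while no difference of Mcl1 passed the test. The BH3-only genes Bbc3 and Pmaip1 were close to undetected in Ly6D+Gfra2+ cells and low in the other 2 groups. In Ly6D+Gfra2- cells most of their counts came from replicate 6 alone. The levels of Bcl2l11, Bid, Bax, Bak1, Bad and Bcl2l1 did not pass the test in any comparison. In bulk libraries such as these, fewer cells that carry a transcript and less of the transcript per cell cannot be told apart.

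**Figure D1:**
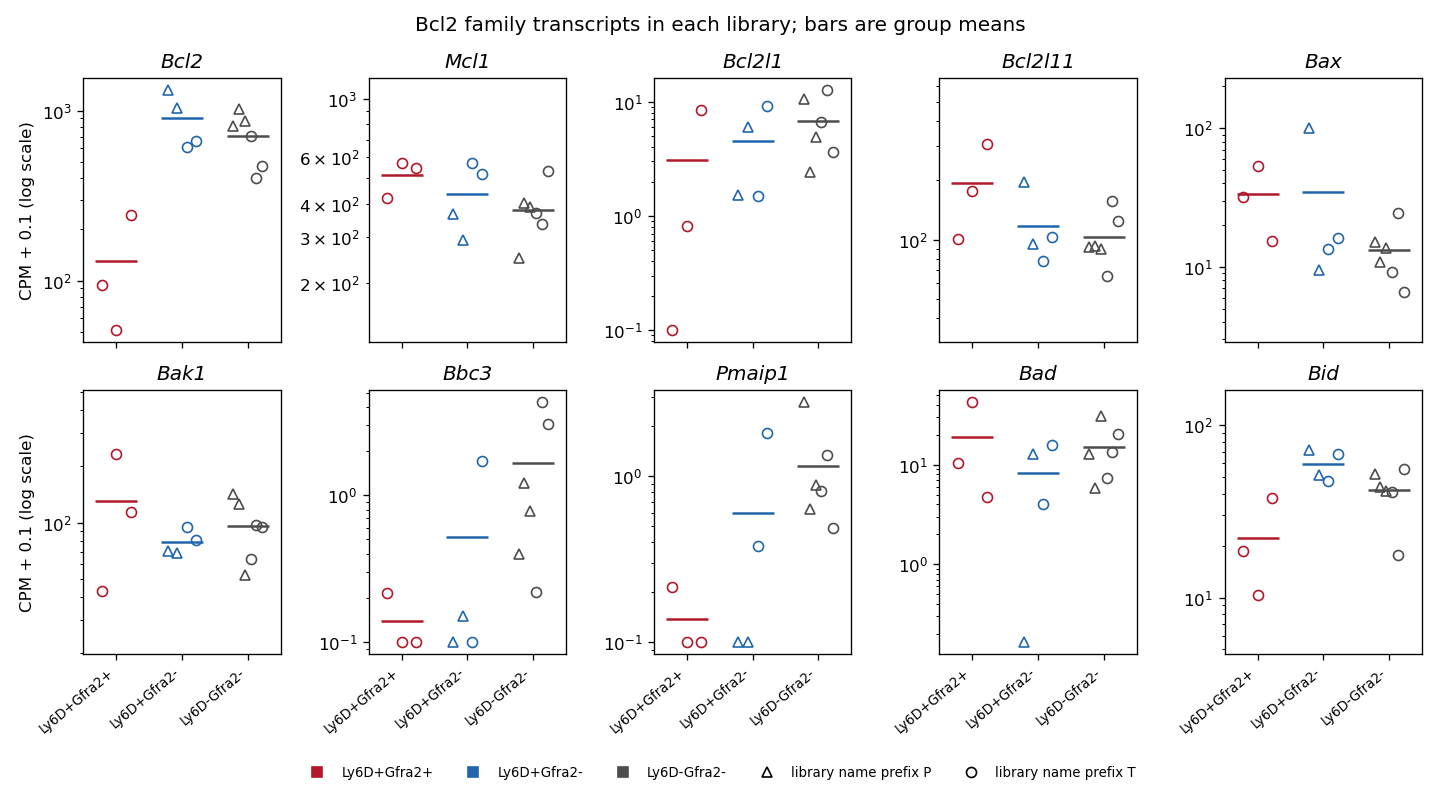
Level of each of the 10 genes in each library, as CPM + 0.1 on a log axis, with horizontal bars for group means and symbols for the first letter of the library name. For Bcl2 the 3 Ly6D+Gfra2+ libraries lie at 51.0 to 245 CPM and all 10 other libraries at 402 CPM or more.

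Bcl2 (NM_009741, chr1:106538176-106714290, GRCm38.p6), the founding survival gene of the family, measured 94.2, 51.0 and 245 CPM in Ly6D+Gfra2+ replicates 4, 5 and 6. It measured 1317, 1044, 608 and 659.5 CPM in Ly6D+Gfra2- replicates 1, 2, 5 and 6. In the 6 Ly6D-Gfra2- libraries it ranged from 402 to 1023 CPM around a median of 759.6 CPM. Every Ly6D+Gfra2+ library lay below every library of the other groups, and Ly6D+Gfra2+ replicate 6 was the highest of its group. Means were 130.0 ± 102 CPM in Ly6D+Gfra2+ cells (SD, n = 3), 907 ± 336 CPM in Ly6D+Gfra2- cells (n = 4) and 714 ± 238 CPM in Ly6D-Gfra2- cells (n = 6).

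In the edgeR quasi-likelihood fit across all 12722 tested genes, with a term for the library-name prefix, Ly6D+Gfra2+ cells held 5.0-fold less Bcl2 transcript than Ly6D+Gfra2- cells (log2 fold change -2.32, SE 0.41, Benjamini-Hochberg adjusted p = 0.0224). They held 3.99-fold less than Ly6D-Gfra2- cells (log2 fold change -1.995, SE 0.38, adjusted p = 0.017). Between Ly6D+Gfra2- and Ly6D-Gfra2- cells the difference was 0.33 on the log2 scale (SE 0.30, normal 95% interval -0.26 to 0.91, adjusted p = 0.999). Bcl2 was thus 1 of 10 members called in Ly6D+Gfra2+ against Ly6D+Gfra2- cells, where 0.409% of all tested genes were called and 0.204% were called lower. It was also 1 of 10 in Ly6D+Gfra2+ against Ly6D-Gfra2- cells, where 1.39% were called and 0.464% were called lower. In Ly6D+Gfra2- against Ly6D-Gfra2- cells edgeR called 0 of the 10 members and 0 of 12722 genes (0%). At an unadjusted p under 0.05 there were 0 members and 599 genes (4.71%), and DESeq2 called 0 members and 20 genes. The comparisons with Ly6D+Gfra2+ cells share those 3 libraries.

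The prefix bears on the size of the Bcl2 difference, because Bcl2 was higher in P libraries than in T libraries. In Ly6D+Gfra2- cells it was 1044 CPM or more with prefix P and 659.5 CPM or less with prefix T, and in Ly6D-Gfra2- cells 814 CPM or more with prefix P and 705 CPM or less with prefix T. Without the prefix term the log2 fold changes were -2.80 against Ly6D+Gfra2- cells (adjusted p = 0.00921) and -2.46 against Ly6D-Gfra2- cells (adjusted p = 0.00777). Among T libraries alone, 3 Ly6D+Gfra2+, 2 Ly6D+Gfra2- and 3 Ly6D-Gfra2-, the groups still did not overlap and the log2 fold changes were -2.29 and -2.02, but the adjusted p-values of 0.193 and 0.116 missed the threshold.

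When libraries were left out in turn, Bcl2 stayed lower in Ly6D+Gfra2+ cells each time. Against Ly6D+Gfra2- cells the call was kept in 11 of 13 fits and missed the threshold when Ly6D+Gfra2- replicate 5 (adjusted p = 0.0555) or replicate 6 (adjusted p = 0.0641) was left out. Against Ly6D-Gfra2- cells it was kept in 12 of 13 fits and lost without Ly6D-Gfra2- replicate 4 (adjusted p = 0.0638). Without Ly6D+Gfra2+ replicate 6 the log2 fold changes were -3.16 and -2.84, a change of over 1.5 times in the fold. Leaving out the Ly6D-Gfra2- replicate 3 library, whose Ly6d went against its label, gave -2.31 (adjusted p = 0.0271) and -2.002 (adjusted p = 0.0224).

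**Figure D2:**
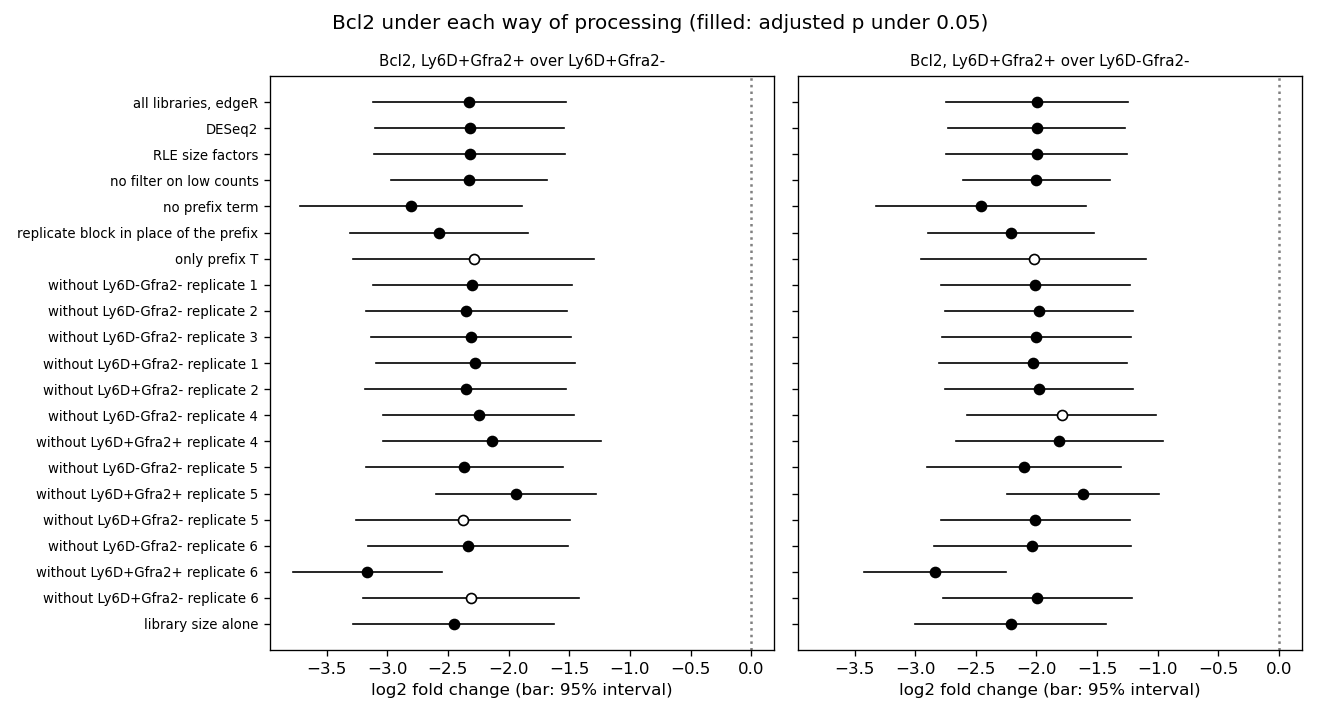
Log2 fold change of Bcl2 in Ly6D+Gfra2+ cells over Ly6D+Gfra2- cells (left) and over Ly6D-Gfra2- cells (right) under each way of processing. Bars are the normal 95% interval and filled points mark an adjusted p under 0.05. All values are below 0, from -3.16 to -1.94 on the left and from -2.84 to -1.61 on the right.

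The summed levels of marker genes of other lineages are given beside the Bcl2 result. The summed level of 6 B-lineage genes was 1232 to 1317 CPM in Ly6D+Gfra2+ libraries, 96.9 to 179.5 CPM in Ly6D+Gfra2- libraries and 9.24 to 137 CPM in Ly6D-Gfra2- libraries. The 4 dendritic cell genes summed to 123 to 297 CPM in Ly6D+Gfra2+ libraries, 976 to 1201 CPM in Ly6D+Gfra2- libraries and 223.5 to 1292 CPM in Ly6D-Gfra2- libraries. The 7 granulocyte and monocyte genes in the files summed to 211 to 444 CPM in Ly6D+Gfra2+ libraries, 498 to 621 CPM in Ly6D+Gfra2- libraries and 692 to 1445 CPM in Ly6D-Gfra2- libraries. The B-lineage sums of Ly6D+Gfra2+ libraries lay above and the granulocyte and monocyte sums below those of all other libraries, while their dendritic cell sums overlapped the Ly6D-Gfra2- libraries. Within the granulocyte and monocyte list, Lyz2 stood at 74.5 to 117 CPM in Ly6D+Gfra2+ libraries, 30.5 to 74.6 CPM in Ly6D+Gfra2- libraries and 64.3 to 211.9 CPM in Ly6D-Gfra2- libraries. None of the genes in these 3 lists was at 0 in a whole group, and their part in the Bcl2 result was not tested. The 5 T cell genes summed to 0.114 to 3.25 CPM in Ly6D+Gfra2+ libraries, with Cd3g and Cd8a at 0. They summed to 0.466 to 35.4 CPM in Ly6D+Gfra2- libraries, with Cd3g at 0, and to 5.47 to 17.0 CPM in Ly6D-Gfra2- libraries. The 5 erythroid genes summed to 0 to 53.9 CPM in Ly6D+Gfra2+ libraries, 1.12 to 30.2 CPM in Ly6D+Gfra2- libraries and 6.35 to 278 CPM in Ly6D-Gfra2- libraries. The 5 stroma and endothelium genes summed to 198 to 274 CPM in Ly6D+Gfra2+ libraries, 159 to 331 CPM in Ly6D+Gfra2- libraries and 187 to 249.9 CPM in Ly6D-Gfra2- libraries, with Col1a1 and Lepr at 0 in both Ly6D+ groups. Pecam1 made up most of these sums, at 159 to 274, 159 to 299.5 and 181 to 249.9 CPM in that order of groups. In the same order Cxcl12 reached 37.6, 0.56 and 1.19 CPM, and Cdh5 reached 13.4, 30.5 and 7.68 CPM. The 3 Ly6D+Gfra2+ libraries also had counts for fewer genes (10837 to 12369) than 9 of the other 10 libraries, the exception being Ly6D+Gfra2- replicate 1 with 11636.

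Mcl1 (NM_008562, chr3:95656944-95663179), a survival protein with a short half-life, measured 421, 573 and 547 CPM in Ly6D+Gfra2+ replicates 4, 5 and 6. It measured 367, 291, 568 and 519 CPM in Ly6D+Gfra2- replicates 1, 2, 5 and 6, and 249 to 534 CPM around a median of 378.5 CPM in Ly6D-Gfra2- libraries. All 3 groups overlapped. The log2 fold change was 0.05 in Ly6D+Gfra2+ over Ly6D+Gfra2- cells (SE 0.25, 95% interval -0.43 to 0.54, adjusted p = 0.954). It was 0.22 over Ly6D-Gfra2- cells (SE 0.24, 95% interval -0.25 to 0.68, adjusted p = 0.737). Its sign turned to -0.13 and -0.06 when counts were scaled by library size alone, a scaling that moved the median of all tested genes by -0.15 and -0.25. In Ly6D+Gfra2- over Ly6D-Gfra2- cells the log2 fold change was 0.17 (SE 0.20, 95% interval -0.22 to 0.55, adjusted p = 0.999). These intervals are narrower than those of the other members and do not reach the size of the Bcl2 difference.

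Divided by transcript length, which allows levels of different genes to be set side by side, Mcl1 and Bcl2 had the 2 highest means among the members in Ly6D+Gfra2- cells and in Ly6D-Gfra2- cells. Mcl1 averaged 128 ± 37.9 and Bcl2 126 ± 46.7 CPM per kb of transcript in Ly6D+Gfra2- cells (SD, n = 4), and 111 ± 27.3 and 99.3 ± 33.1 CPM per kb in Ly6D-Gfra2- cells (n = 6). In Ly6D+Gfra2+ cells Mcl1 averaged 150 ± 23.8 CPM per kb (n = 3) and lay above the next member, Bak1, in all 3 libraries, while Bcl2 averaged 18.1 ± 14.1 CPM per kb and had rank 5. The neighbours Bcl2 and Mcl1 overlapped in both Gfra2- groups, and Bcl2 overlapped its neighbours Bcl2l11 and Bad in Ly6D+Gfra2+ cells. Bcl2 also overlapped the next member, Bax in Ly6D+Gfra2- cells and Bak1 in Ly6D-Gfra2- cells. In Ly6D+Gfra2- replicate 1, Bax (115 CPM per kb) lay above Mcl1 (107 CPM per kb).

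The per-kb level of Mcl1 over that of Bcl2 was 9.41, 23.6 and 4.70 in Ly6D+Gfra2+ replicates 4, 5 and 6. It was 0.586 to 1.97 in the 4 Ly6D+Gfra2- libraries and 0.644 to 2.36 in the 6 Ly6D-Gfra2- libraries. The lowest ratio in Ly6D+Gfra2+ cells lay above the highest of every other library, as a description with no test. Of the summed per-kb level of the 10 members, Bcl2 made up 5.82% ± 4.07 in Ly6D+Gfra2+ cells, 32.7% ± 9.74 in Ly6D+Gfra2- cells and 30.8% ± 8.58 in Ly6D-Gfra2- cells. Mcl1 made up 47.5% ± 6.48 in Ly6D+Gfra2+ cells, 34.3% ± 12.7 in Ly6D+Gfra2- cells and 34.8% ± 7.71 in Ly6D-Gfra2- cells. The summed level itself was 324.5 ± 90.1 CPM per kb in Ly6D+Gfra2+ cells, 385 ± 83.0 in Ly6D+Gfra2- cells and 319.8 ± 34.3 in Ly6D-Gfra2- cells, and the libraries of the groups overlapped.

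**Figure D3:**
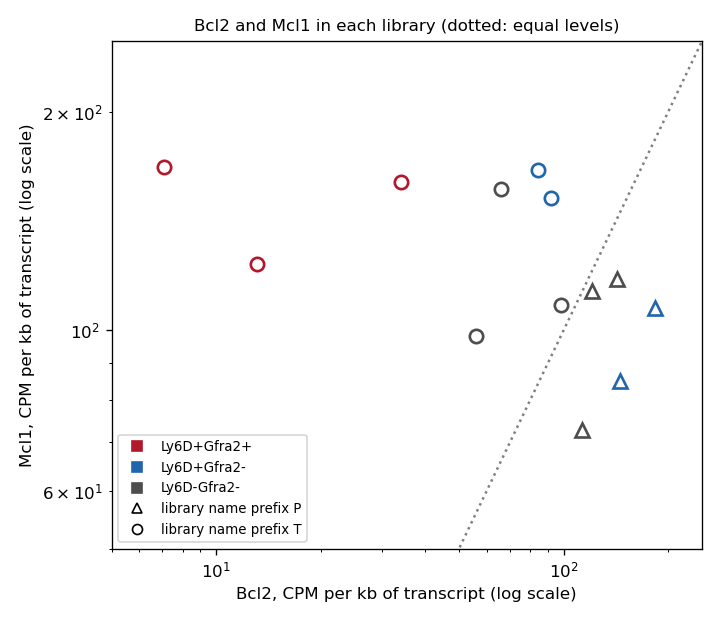
Level of Mcl1 against Bcl2 in each library, both in CPM per kb of transcript on log axes, with a dotted line where the levels are equal and symbols for the first letter of the library name. The 3 Ly6D+Gfra2+ libraries lie to the left of all others, with Mcl1 over Bcl2 ratios of 4.70 to 23.6.

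Bcl2l1 (NM_009743, chr2:152758732-152833803), the Bcl-xL gene, was the lowest of the 3 survival genes. It measured 0, 0.717 and 8.33 CPM in Ly6D+Gfra2+ replicates 4, 5 and 6 and 1.43, 5.88, 1.40 and 9.12 CPM in Ly6D+Gfra2- replicates 1, 2, 5 and 6. In Ly6D-Gfra2- libraries it ranged from 2.31 to 12.5 CPM around a median of 5.65 CPM. The groups overlapped, libraries of 1 group differed many-fold, and the adjusted p was 0.883, 0.733 and 0.999 for Ly6D+Gfra2+ over Ly6D+Gfra2-, Ly6D+Gfra2+ over Ly6D-Gfra2- and Ly6D+Gfra2- over Ly6D-Gfra2- cells in edgeR. Its span overlaps the counted gene Cox4i2. The spans of Bcl2, Bcl2l11, Bak1 and Bad overlap Mir3473f, Acoxl, Ggnbp1 and Gpr137. The strand setting of the counting is not given in the sources used here, so reads in shared stretches cannot be assigned with certainty.

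Among the BH3-only genes, Bcl2l11 (NM_207680, chr2:128126038-128162547), which encodes Bim, had the highest counts. It measured 101, 175.5 and 304 CPM in Ly6D+Gfra2+ replicates 4, 5 and 6, and 195, 94.97, 78.2 and 103 CPM in Ly6D+Gfra2- replicates 1, 2, 5 and 6. In Ly6D-Gfra2- libraries it ranged from 65.3 to 156.5 CPM around a median of 92.1 CPM. Ly6D+Gfra2+ replicates 5 and 6 lay above all Ly6D-Gfra2- libraries, and replicate 4 lay within their range. The log2 fold change in Ly6D+Gfra2+ over Ly6D-Gfra2- cells was 0.93 (SE 0.40, normal 95% interval 0.15 to 1.72), with an unadjusted p of 0.0321 and an adjusted p of 0.274 in edgeR. Over Ly6D+Gfra2- cells it was 0.76 (SE 0.46, adjusted p = 0.503). Per kb of transcript, Bid averaged above Bcl2l11 in Ly6D+Gfra2- cells (27.2 against 23.4 CPM per kb), with overlap. Bcl2l11 averaged above Bid in Ly6D-Gfra2- cells (20.5 against 19.0, with overlap) and in Ly6D+Gfra2+ cells (38.4 against 10.1). The per-kb level of Bcl2l11 over that of Bcl2 was 1.53, 4.91 and 1.78 in Ly6D+Gfra2+ replicates 4, 5 and 6, against 0.130 to 0.222 in Ly6D+Gfra2- libraries and 0.129 to 0.556 in Ly6D-Gfra2- libraries. Bcl2l11 exceeded Bcl2 per kb in 3 of 3 Ly6D+Gfra2+ libraries and in 0 of the 10 others, which again is given without a test.

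Bid (NM_007544, chr6:120893119-120917062), a BH3-only protein that caspase 8 cleaves to link death receptors to mitochondria, measured 18.4, 10.3 and 37.7 CPM in Ly6D+Gfra2+ replicates 4, 5 and 6. It measured 71.8, 50.9, 47.1 and 68.0 CPM in Ly6D+Gfra2- replicates 1, 2, 5 and 6. In Ly6D-Gfra2- libraries it ranged from 17.4 to 55.7 CPM around a median of 42.2 CPM. The Ly6D+Gfra2+ libraries all lay below the Ly6D+Gfra2- libraries and overlapped the Ly6D-Gfra2- libraries. The log2 fold change in Ly6D+Gfra2+ over Ly6D+Gfra2- cells was -1.33 (SE 0.56), with an unadjusted p of 0.0301 and an adjusted p of 0.319, and over Ly6D-Gfra2- cells it was -0.81 (SE 0.53, adjusted p = 0.50). Without Ly6D+Gfra2+ replicate 6, the highest of its group, these values were -1.956 (adjusted p = 0.111) and -1.44 (adjusted p = 0.182). Without Ly6D+Gfra2+ replicate 5, the lowest of its group, they were -0.99 (adjusted p = 0.455) and -0.47 (adjusted p = 0.729). Bcl2 and Bid were the 2 of 10 members whose Ly6D+Gfra2+ and Ly6D+Gfra2- libraries did not overlap, where 9.71% of all tested genes did not.

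Bbc3 (NM_133234, chr7:16308398-16318334) and Pmaip1 (NM_021451, chr18:66458604-66465558), which encode Puma and Noxa and are known targets of p53, were the 2 lowest members. Bbc3 had 1 count in the 3 Ly6D+Gfra2+ libraries together, 17 in the 4 Ly6D+Gfra2- libraries and 117 in the 6 Ly6D-Gfra2- libraries. Pmaip1 had 1 count in Ly6D+Gfra2+ libraries, 20 in Ly6D+Gfra2- libraries and 79 in Ly6D-Gfra2- libraries. In both Ly6D+ groups each gene was at 0 CPM in 2 libraries. Ly6D+Gfra2- replicate 6 alone held 16 of the 17 counts of Bbc3 and 17 of the 20 counts of Pmaip1, so no fold between the Ly6D+ groups is given for these genes.

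Relative to the scaled library totals, Bbc3 was 37.9 times lower in Ly6D+Gfra2+ cells than its Ly6D-Gfra2- level, with a 95% counting interval of 6.67 to 1509. Pmaip1 was 25.6 times lower than its Ly6D-Gfra2- level (4.46 to 1023). These intervals cover counting error only and not the spread between libraries. With that spread taken into account, the edgeR adjusted p of Ly6D+Gfra2+ over Ly6D-Gfra2- cells was 0.243 for Bbc3 and 0.341 for Pmaip1. All 3 Ly6D+Gfra2+ libraries lay below all 6 Ly6D-Gfra2- libraries for Bcl2, Bbc3 and Pmaip1, which is 3 of 10 members where 10.2% of all tested genes did not overlap. Bbc3 and Pmaip1 passed the filter on low counts only through Gfra2- libraries. Their lower place in Ly6D+Gfra2+ cells is thus partly set by that filter, and the count of 3 is not support for a difference. For Bbc3 the nearest libraries of the 2 groups, Ly6D+Gfra2+ replicate 4 at 0.114 CPM and Ly6D-Gfra2- replicate 4 at 0.119 CPM, each held 1 count, so the library scaling alone sets them apart. For Pmaip1 the Ly6D-Gfra2- values reached down to 0.389 CPM, which is 3 counts.

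Bad (NM_007522, chr19:6941861-6951905), the BH3-only protein controlled by Akt phosphorylation, measured 10.3, 42.4 and 4.65 CPM in Ly6D+Gfra2+ replicates 4, 5 and 6. It measured 0.0649, 12.8, 3.92 and 15.8 CPM in Ly6D+Gfra2- replicates 1, 2, 5 and 6, and 5.78 to 30.8 CPM around a median of 13.1 CPM in Ly6D-Gfra2- libraries. The groups overlapped, and the low value of 0.0649 CPM was 1 library, Ly6D+Gfra2- replicate 1. The log2 fold changes were 1.20 (SE 1.20, adjusted p = 0.728) in Ly6D+Gfra2+ over Ly6D+Gfra2- cells and 0.30 (SE 1.18, adjusted p = 0.944) over Ly6D-Gfra2- cells in edgeR.

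Of the effectors, Bax (NM_007527, chr7:45461695-45466903) measured 31.7, 53.7 and 15.4 CPM in Ly6D+Gfra2+ replicates 4, 5 and 6. It measured 99.7, 9.43, 13.3 and 16.02 CPM in Ly6D+Gfra2- replicates 1, 2, 5 and 6 and ranged from 6.48 to 24.2 CPM around a median of 12.2 CPM in Ly6D-Gfra2- libraries. Ly6D+Gfra2+ replicates 4 and 5 were above all Ly6D-Gfra2- libraries, and Ly6D+Gfra2- replicate 1 was above every other library. The log2 fold change in Ly6D+Gfra2+ over Ly6D-Gfra2- cells was 1.67 (SE 0.76), with an unadjusted p of 0.0421 and an adjusted p of 0.304, and without Ly6D-Gfra2- replicate 5 it was 2.39 (adjusted p = 0.232). In Ly6D+Gfra2+ over Ly6D+Gfra2- cells it was 0.50 (SE 0.91, adjusted p = 0.868), and without Ly6D+Gfra2- replicate 1 it was 1.33 (adjusted p = 0.425).

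Bak1 (NM_007523, chr17:27019812-27028627), the other effector, measured 43.1, 234 and 113.5 CPM in Ly6D+Gfra2+ replicates 4, 5 and 6. It measured 70.1, 69.0, 94.5 and 80.6 CPM in Ly6D+Gfra2- replicates 1, 2, 5 and 6 and ranged from 52.3 to 142 CPM around a median of 96.1 CPM in Ly6D-Gfra2- libraries. The Ly6D+Gfra2+ group held both the lowest and the highest library of all 13. The log2 fold changes were 0.76 (SE 0.49, adjusted p = 0.54) over Ly6D+Gfra2- cells and 0.47 (SE 0.48, adjusted p = 0.711) over Ly6D-Gfra2- cells. Without Ly6D+Gfra2+ replicate 5, the highest library, they were 0.023 (adjusted p = 0.998) and -0.26.

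In all, 4 members, Bcl2, Bcl2l11, Bax and Bbc3, had an unadjusted p under 0.05 in Ly6D+Gfra2+ over Ly6D-Gfra2- cells, where 15.4% of all tested genes did. Bcl2 and Bid were the 2 members that did so over Ly6D+Gfra2- cells, where 13.2% of all tested genes did. Bbc3 is in the first of these counts although it passed the filter on low counts only through Gfra2- libraries. The median log2 fold change of the 10 members was -0.35 over Ly6D+Gfra2- cells and -0.30 over Ly6D-Gfra2- cells, against 0.03 and 0.01 for all tested genes, and 5 of 10 members were positive in each comparison.

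**Figure D4:**
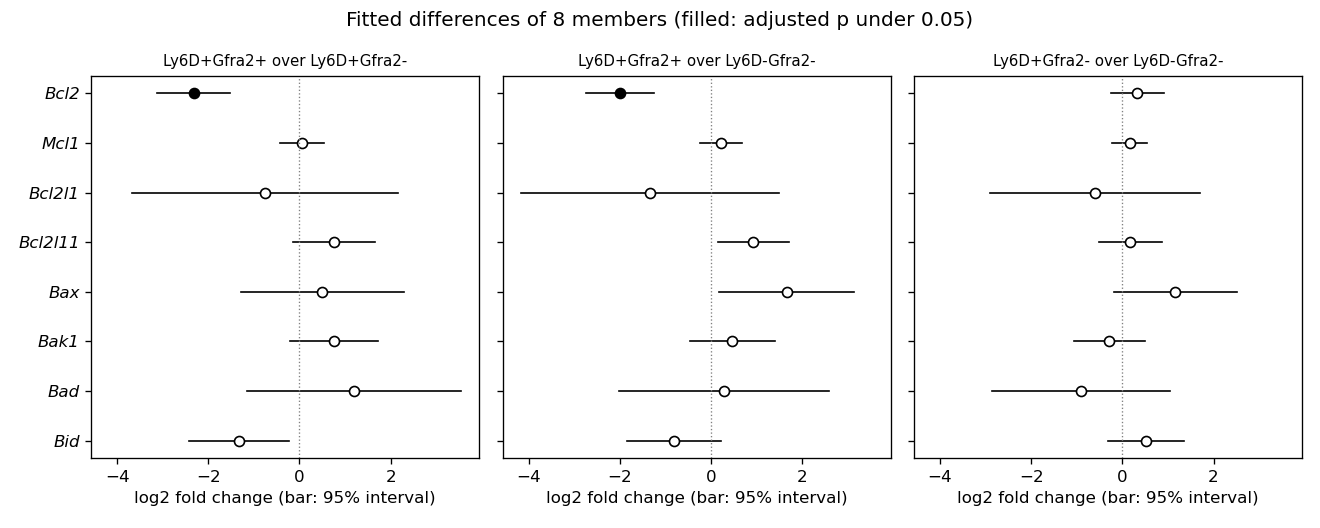
Log2 fold changes of 8 members in each comparison from the edgeR fit, with bars for the normal 95% interval and filled points for an adjusted p under 0.05. Bbc3 and Pmaip1 are left out because 1 count in Ly6D+Gfra2+ cells gives no usable fold. Bcl2 is the only filled point, at -2.32 and -1.995, and Mcl1 has the shortest bars.

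The other genes of the pathway were described by 5 lists of 80 genes, of which 69 were tested. Among 9 tested of 16 other Bcl2 family genes, 0 were called in any comparison by edgeR or DESeq2, and 1 had an unadjusted p under 0.05 in each comparison with Ly6D+Gfra2+ cells. That gene was Bcl2l14, a divergent family member, which had 0 counts in Ly6D+Gfra2+ libraries, 63 in Ly6D+Gfra2- libraries and 81 in Ly6D-Gfra2- libraries. Bcl2l14 passed the filter on low counts only through Gfra2- libraries, so its lower level in Ly6D+Gfra2+ cells is partly set by that filter. Against a floor of 3 counts over the 3 Ly6D+Gfra2+ libraries, Bcl2l14 was at least 9.93-fold lower than its Ly6D+Gfra2- level by counting alone. It was at least 8.74-fold lower than its Ly6D-Gfra2- level in the same way. Ly6D+Gfra2- replicate 2 held 46 of the 63 counts and Ly6D-Gfra2- replicate 4 held 46 of the 81, and without each of these the bounds were 4.15-fold and 4.21-fold. Its edgeR adjusted p was 0.337 over Ly6D+Gfra2- cells and 0.261 over Ly6D-Gfra2- cells. Bcl2l2, which encodes the survival protein Bcl-w, averaged 14.7 ± 9.65 CPM in Ly6D+Gfra2+ cells, 23.0 ± 6.46 CPM in Ly6D+Gfra2- cells and 27.8 ± 17.4 CPM in Ly6D-Gfra2- cells, and its adjusted p over Ly6D-Gfra2- cells was 0.44. Becn1, the Bcl2-binding autophagy protein Beclin 1, averaged 56.8 ± 8.07 CPM in Ly6D+Gfra2+ cells and 94.99 ± 16.6 CPM in Ly6D+Gfra2- cells without overlap, with an adjusted p of 0.482. Bnip3l, a mitophagy receptor, averaged 105 ± 31.6 CPM in Ly6D+Gfra2+ cells, 75.5 ± 41.5 CPM in Ly6D+Gfra2- cells and 72.6 ± 7.25 CPM in Ly6D-Gfra2- cells (adjusted p = 0.523 over Ly6D+Gfra2- cells and 0.408 over Ly6D-Gfra2- cells). In Ly6D+Gfra2- over Ly6D-Gfra2- cells the smallest p in this list belonged to Bcl2l13, Becn1 and Bnip3, each with an adjusted p of 0.999. The list's median log2 fold changes were -0.61 over Ly6D+Gfra2- cells and 0.13 over Ly6D-Gfra2- cells.

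Of 20 tested genes of the mitochondrial pathway downstream and the caspases, Apaf1 and cytochrome c among them, edgeR called Parp1 alone, higher in Ly6D+Gfra2+ cells in both comparisons, and DESeq2 also called Casp6 higher over Ly6D-Gfra2- cells. Of all tested genes, edgeR called 0.204% higher over Ly6D+Gfra2- cells and 0.928% higher over Ly6D-Gfra2- cells. Parp1, a DNA repair enzyme that caspases cleave, measured 1615, 1446 and 1472 CPM in Ly6D+Gfra2+ replicates 4, 5 and 6. It measured 628 to 919 CPM in Ly6D+Gfra2- libraries and 401 to 753 CPM in Ly6D-Gfra2- libraries. The Ly6D+Gfra2+ libraries lay above all others. The log2 fold changes were 1.12 (SE 0.21, adjusted p = 0.0336) over Ly6D+Gfra2- cells and 1.55 (SE 0.20, adjusted p = 0.0013) over Ly6D-Gfra2- cells. The call over Ly6D+Gfra2- cells held in 4 of 13 fits that left out a library (Ly6D-Gfra2- replicate 3, Ly6D+Gfra2- replicates 1 and 6, Ly6D+Gfra2+ replicate 6), with adjusted p-values of 0.0502 to 0.129 in the other 9, and the call over Ly6D-Gfra2- cells held in all 13. The list's median log2 fold changes were 0.43 over Ly6D+Gfra2- cells and 0.295 over Ly6D-Gfra2- cells.

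Of 11 tested genes of the p53 arm, 0 were called over Ly6D+Gfra2- cells (2 with an unadjusted p under 0.05, 0 called by DESeq2) and 1 over Ly6D-Gfra2- cells, Trp53inp1, a stress protein induced by p53. Of all tested genes, 0.409% were called over Ly6D+Gfra2- cells, 13.2% had an unadjusted p under 0.05 there, and 1.39% were called over Ly6D-Gfra2- cells. Trp53inp1 measured 285, 406 and 211 CPM in Ly6D+Gfra2+ replicates 4, 5 and 6 and 76.0 to 114 CPM in Ly6D-Gfra2- libraries without overlap, and differed by 1.48 on the log2 scale (SE 0.32, adjusted p = 0.0306). That call held in 8 of 13 fits that left out a library and was lost without Ly6D-Gfra2- replicates 4, 5 or 6, Ly6D+Gfra2+ replicate 5 or Ly6D+Gfra2- replicate 6 (adjusted p = 0.0562 to 0.10). The list's median log2 fold changes were 0.29 over Ly6D+Gfra2- cells and 0.18 over Ly6D-Gfra2- cells.

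Of 8 tested genes of the death receptor arm, which feeds into the family through Bid, 0 were called by edgeR or DESeq2 in any comparison. Fadd, the adaptor that recruits caspase 8, averaged 7.78 ± 2.12 CPM in Ly6D+Gfra2+ cells and 35.2 ± 25.3 CPM in Ly6D+Gfra2- cells without overlap (unadjusted p = 0.0276, adjusted p = 0.311), and it was the 1 gene of the list with an unadjusted p under 0.05 in any comparison. Tradd, the adaptor of the tumour necrosis factor receptor, averaged 1.06 ± 1.29 CPM in Ly6D+Gfra2+ cells and 9.72 ± 5.69 CPM in Ly6D+Gfra2- cells (adjusted p = 0.408). Casp8 averaged 305 ± 125 CPM in Ly6D+Gfra2+ cells, 338 ± 72.3 CPM in Ly6D+Gfra2- cells and 313 ± 62.1 CPM in Ly6D-Gfra2- cells, with an adjusted p of 0.631 or more in each comparison. Tnfrsf10b, a death receptor, averaged 2.46 ± 3.96 CPM in Ly6D+Gfra2- cells and 4.31 ± 4.80 CPM in Ly6D-Gfra2- cells, also short of the threshold. The list's median log2 fold changes were -0.25 over Ly6D+Gfra2- cells and -0.27 over Ly6D-Gfra2- cells.

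Among 21 tested regulators of the members, 1 was called higher in Ly6D+Gfra2+ over Ly6D+Gfra2- cells and 2 over Ly6D-Gfra2- cells by edgeR, where 0.204% and 0.928% of all tested genes were called higher. DESeq2 also called Ywhag higher in both comparisons. Foxo1, a forkhead factor that in other lymphocytes is known to act on Bcl2l11 and Il7r, averaged 684 ± 260.1 CPM in Ly6D+Gfra2+ cells, 155 ± 67.7 CPM in Ly6D+Gfra2- cells and 67.6 ± 27.1 CPM in Ly6D-Gfra2- cells. Its log2 fold changes were 1.82 over Ly6D+Gfra2- cells (SE 0.38, adjusted p = 0.0471) and 2.97 over Ly6D-Gfra2- cells (SE 0.36, adjusted p = 0.000627). The first of these calls held in 3 of 13 fits that left out a library (Ly6D-Gfra2- replicate 3, Ly6D+Gfra2- replicate 1, Ly6D+Gfra2+ replicate 6), with adjusted p-values of 0.0528 to 0.146 in the other 10. Il7r, the interleukin 7 receptor chain, averaged 925 ± 185 CPM in Ly6D+Gfra2+ cells, 664 ± 89.8 CPM in Ly6D+Gfra2- cells and 441 ± 129 CPM in Ly6D-Gfra2- cells. Il7r rose over Ly6D-Gfra2- cells (log2 fold change 1.19, SE 0.24, adjusted p = 0.0228), and was lost as a call without Ly6D+Gfra2+ replicate 4 or Ly6D-Gfra2- replicates 4, 5 or 6 (adjusted p = 0.0593 to 0.0997). The list's median log2 fold change was 0.42 in both comparisons. Among T libraries alone Parp1 and Foxo1 over Ly6D+Gfra2- cells (adjusted p = 0.232 and 0.119) and Trp53inp1 over Ly6D-Gfra2- cells (adjusted p = 0.069) were no longer called. Scaling by library size alone removed the same calls (adjusted p = 0.081, 0.069 and 0.077) and that of Il7r (adjusted p = 0.0955).

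The genes most like 3 members across the 13 libraries were found among 10411 genes by the mean absolute difference of centred log2(CPM + 1). For Bcl2 they were Pggt1b (0.38), Mast2 (0.40) and Cers6 (0.405). Mast2, a kinase gene, averaged 10.3 ± 9.19 CPM in Ly6D+Gfra2+ cells, 64.0 ± 18.2 CPM in Ly6D+Gfra2- cells and 45.5 ± 21.3 CPM in Ly6D-Gfra2- cells. For Bid they were Fyco1 (0.24), Echs1 (0.295) and Zkscan3 (0.31), and for Bcl2l1 they were Slc41a1 (0.39), Gm5111 (0.48) and Psmb6 (0.48). These genes were picked for their likeness and were not tested.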

How the data were processed

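RNA was sequenced from 13 libraries, prepared per the labels' protocols with a Qiagen RNeasy Micro kit and 2 NuGEN Ovation kits. The deposited values are raw counts per RefSeq identifier, per the file headers. The tools in the submitters' processing notes are HISAT, TopHat, HOMER, DESeq and FastQC, with build mm10 and no roles. Strand setting and handling of reads with several matches are not given in the sources used here, and amplification before sequencing means that counts are not separate molecules.

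In R 4.3.3, edgeR 4.0.16 fitted the counts by quasi-likelihood with group and library-name prefix as terms, TMM scaling, and filterByExpr (minimum count 10, minimum total 15). Calls are two-sided and need an adjusted p (Benjamini-Hochberg over the 12722 genes tested) under 0.05. Each SE is the log2 fold change over the root of the F statistic. All 95% intervals around log2 fold changes are normal approximations, which for edgeR are narrower than its test implies. For Tradd in Ly6D+Gfra2+ over Ly6D+Gfra2- cells the interval was -5.78 to -0.038, but the unadjusted edgeR p was 0.0636. Levels per kb divide CPM by the length of the counted RefSeq transcript in GENCODE M21. Alternatives were DESeq2 1.42.0, other scaling, filter and terms, T or P libraries alone, and each library left out. The fit was also run on simulated counts, drawn with its own estimates of the spread and without a prefix effect. That run differs from these data and is not used as support here. No pair of replicate libraries agreed within sampling noise.

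The members and lists were chosen with earlier results of these data known. Text values cover the 10 members, genes of each list called in any comparison or else the 3 with the smallest p per comparison, and for the 3 members with the widest range of group means the 3 most alike genes. Scaling by library size alone and P libraries alone were added after the data were seen.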

Additional observations from a re-analysis of the deposited data

Results flagged for a closer look

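In 4 of 20 sets of replicate values (10 members in each of the 2 groups of 4 or more libraries), 1 library stood far from the others of its group by Dixon's criterion, which chance alone meets in about 1 of 20 sets. Bax was 99.7 CPM in Ly6D+Gfra2- replicate 1, against 9.43 to 16.02 CPM in the other 3 Ly6D+Gfra2- libraries. Bbc3 was 1.62 CPM and Pmaip1 1.72 CPM in Ly6D+Gfra2- replicate 6, against at most 0.0507 and 0.280 CPM in the other libraries of that group. Pmaip1 was 2.68 CPM in Ly6D-Gfra2- replicate 1, against at most 1.24 CPM in the other 5 Ly6D-Gfra2- libraries.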

How the results depend on the processing

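Of 1214 values of single genes under 21 alternatives, 1149 kept their direction and side of the threshold, 41 lost and 1 gained the call, and 23 changed sign without being called. Most of these values belong to results not called in the main fit, which had no call to lose. All 41 losses fell on the calls of Bcl2, Parp1, Foxo1, Il7r and Trp53inp1. The share that was kept therefore does not measure how stable the calls are. Genes called in Ly6D+Gfra2- over Ly6D-Gfra2- cells, 0 in the main fit, numbered 20 with DESeq2, 9 without the filter and 1 among T libraries. Over Ly6D+Gfra2- cells, Ly6D+Gfra2+ cells had 52 called genes, against 545 with DESeq2, 164 without the filter, 103 without the prefix term and 9 among T libraries. Over Ly6D-Gfra2- cells they had 177, against 794 with DESeq2, 318 without the filter, 62 among T libraries and 111 with library size alone. Calls among the 10 members were 0 among T libraries in both comparisons with Ly6D+Gfra2+ cells. Calls in the pathway lists over Ly6D+Gfra2- cells (2) were 0 among T libraries and 0 with library size alone, and those over Ly6D-Gfra2- cells (4) were 2 with library size alone.

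Leaving out 1 library at a time gave 0 to 16, 13 to 184 and 49 to 372 called genes in Ly6D+Gfra2- over Ly6D-Gfra2-, Ly6D+Gfra2+ over Ly6D+Gfra2- and Ly6D+Gfra2+ over Ly6D-Gfra2- cells. Member calls were 0 to 1 in both comparisons with Ly6D+Gfra2+ cells, and pathway calls were 0 to 1, 0 to 2 and 2 to 7. The 16 calls came without Ly6D-Gfra2- replicate 3, whose Ly6d went against its label, the 13 without Ly6D+Gfra2- replicate 5, the 49 without Ly6D-Gfra2- replicate 5, and the 184 and 372 without Ly6D+Gfra2+ replicate 6.

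Whether replicate numbers pair the libraries was not settled, because each library had few same-numbered partners and all correlations were low. The 9 same-numbered pairs correlated at -0.028 to 0.137, with 1 over 0.1, and 0.137 was the highest of all pairs between groups. Of 12 libraries, 4 correlated best with their own number. With the number as a replicate block in place of the prefix, 13 and 108 genes were called in Ly6D+Gfra2- over Ly6D-Gfra2- and Ly6D+Gfra2+ over Ly6D-Gfra2- cells. Pathway calls over Ly6D+Gfra2- cells were 1 (Parp1 was lost, adjusted p = 0.0592), Bcl2 was -2.57 over Ly6D+Gfra2- cells (adjusted p = 0.00566) and -2.21 over Ly6D-Gfra2- cells (adjusted p = 0.00425), and Bcl2l11 in Ly6D+Gfra2- over Ly6D-Gfra2- cells was -0.09.

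None of the log2 fold changes that changed sign was called. In Ly6D+Gfra2- over Ly6D-Gfra2- cells they were Mcl1 -0.074 and Bnip3 -0.00025 among P libraries, and Bcl2l11 -0.35, Bak1 0.041, Pmaip1 0.35 and Bcl2l13 -0.027 among T libraries. In Ly6D+Gfra2+ over Ly6D+Gfra2- cells they were Mcl1 -0.09 among T libraries and -0.13 with library size alone, and Bax -0.045 without the prefix term. In Ly6D+Gfra2+ over Ly6D-Gfra2- cells they were Mcl1 -0.055 and Bad -0.035 with library size alone. Leaving out 1 library gave Bcl2l11 -0.19 to 0.37 and Bax -0.085 to 1.55 in Ly6D+Gfra2- over Ly6D-Gfra2- cells. It gave Mcl1 -0.035 to 0.17, Bcl2l1 -3.80 to 0.14, Bax -0.012 to 1.33 and Bad -0.16 to 2.06 in Ly6D+Gfra2+ over Ly6D+Gfra2- cells. It gave Bak1 -0.26 to 0.88, Bad -1.06 to 0.76 and Casp8 -0.57 to 0.032 in Ly6D+Gfra2+ over Ly6D-Gfra2- cells. The causes were not tested. Depth limits Bbc3, Pmaip1 and Bcl2l1, whose low values lie near a few counts.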
